A study of Mus musculus with 6 samples.

Results

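The 10 genes described here, Atf4, Atf5, Ddit3, Trib3, Chac1, Asns, Sesn2, Psat1, Phgdh and Ppp1r15a, belong to the ATF4 arm of the integrated stress response. They were taken by name from the deposited table, where each symbol had 1 row, so that 10 of 28752 listed genes were members, and all 10 were among the 18348 genes tested. The libraries came from mouse intestinal crypt stem cells, isolated as Lgr5-positive cells from Lgr5-GFP mice and grown into organoids. One group of 3 samples carried the vector and is labelled WT, and the other group of 3 samples overexpressed circEZH2_005, a circular RNA of the Ezh2 gene, from an adenovirus given 72 h earlier. All 6 samples had gone through hypoxia/reoxygenation (H/R), with 4 h in 2% O2, 5% CO2 and 93% N2, so both groups share that exposure and the comparison is between circEZH2_005 and vector under H/R. The labels give neither the age and strain of the mice nor whether samples came from separate animals, so the p-values measure the spread between these samples only. The labels give an infection time of 72 h for all 6 samples, vector included, but name an adenovirus for circEZH2_005 only. They give no time of reoxygenation. Cells without H/R were not analysed here.

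In the integrated stress response, any of a small family of kinases phosphorylates the translation factor eIF2, which lowers protein synthesis in general while the mRNA of the transcription factor ATF4 is translated more. ATF4 then switches on genes for amino acid synthesis, amino acid uptake and the charging of tRNAs, and, when the stress lasts, genes such as Ddit3 and Chac1 that are tied to cell death. Amino acid shortage, heme shortage, viral RNA and misfolded protein in the endoplasmic reticulum (ER) are known triggers, and in the intestine the pathway is studied for its part in secretory cells and in the renewal of the epithelium. Because ATF4 is controlled largely through translation, mRNA levels report on its targets more directly than on ATF4 itself.

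ATF4 binds DNA together with C/EBP proteins at a composite site whose core reads TGATGNAA. That core was searched on both strands, with no other motif, in the RefSeq promoters of GRCm38.p6, which run from 250 bases before to 50 bases after each start site. All 10 members had a promoter there (12 promoters, since Atf5 and Psat1 have more than 1), and 3 of the members, Trib3, Chac1 and Asns, held a match. Over all 27025 genes with a promoter 4.51% held one, and over all 32851 promoters 3.97% did, beside 3 of the 12 member promoters. All matches found in members are shown, and the capitals mark the 8 bases of the core as read on the strand of the gene. A match describes the letters only.

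Chac1 (GRCm38.p6, chr2:119351038-119351067, plus strand, core on the opposite strand from -193 to -186): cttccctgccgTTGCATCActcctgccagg
Trib3 (GRCm38.p6, chr2:152344028-152344057, minus strand, core on the opposite strand from 15 to 22): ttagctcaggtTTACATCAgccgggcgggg
Asns (GRCm38.p6, chr6:7693214-7693243, minus strand, core on the strand of the gene from -23 to -16): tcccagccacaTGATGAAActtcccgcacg

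The totals were between 71506487 and 79919893 counts per sample, and a floor of 3 counts corresponded to between 0.0377 and 0.0419 CPM (each count relative to its library's total after edgeR's TMM scaling, on the usual CPM scale), far below every member. Pearson's r of log2 CPM across genes, which are not independent replicates, was between 0.970 and 0.979 within groups. Vector sample 2 lay nearer to the circEZH2_005 samples (r from 0.965 to 0.971) than vector samples 1 and 3 did (0.951 to 0.964). Against the labelled cell type, Lgr5 was present at between 7.70 and 18.3 CPM, but so were products of enterocytes, goblet cells and leukocytes. Lgr5 had 16.1, 12.1 and 18.3 CPM with vector and 8.55, 9.10 and 7.70 CPM with circEZH2_005 (log2 fold change -0.88, edgeR adjusted p = 0.0434). Of 6 stem cell markers edgeR called 2 lower, Lgr5 among them, and 1 had a positive log2 fold change. The 8 leukocyte markers summed to between 699 and 979 CPM with vector and to between 1700 and 2199 CPM with circEZH2_005, with none at 0 in all samples. The libraries were made with oligo(dT) beads and the table has no row for circEZH2_005 itself, so the overexpression was not checked here, and its host gene Ezh2 had a log2 fold change of -0.13 (edgeR adjusted p = 0.511). In libraries from mixed cells a change in the number of cells of a type cannot be told apart from a change in RNA per cell.

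None of the 10 members passed an adjusted p-value of 0.05 when circEZH2_005 was compared with vector by the quasi-likelihood test of edgeR, adjusted after Benjamini and Hochberg over all genes tested, where 3.67% of all genes tested passed, 2.69% as higher and 0.986% as lower. At an unadjusted p under 0.05 there were 3 members, Atf4, Trib3 and Chac1, all of them higher, against 23.7% of all genes in either direction and 14.0% as higher. DESeq2 called Trib3 and Chac1 as higher, where it called 9.65% of all genes with an adjusted p as higher and 13.9% in either direction, and limma on log2(FPKM + 1) called none of the members and 5.54% of all genes. The median log2 fold change was 0.19 over the members and 2.15e-05 over all genes tested, and 8 of 10 members had a positive value, as did 9174 of all 18348 genes.

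Within the circEZH2_005 group the members differed widely between samples. CircEZH2_005 sample 1 had the highest value of the 6 samples in 9 of the 10 members, Ddit3 being the exception, whereas this sample was the highest in 19.5% of all genes tested. CircEZH2_005 sample 3 was the lowest of its group in 8 of the 10, the exceptions being Phgdh and Ppp1r15a. Each log2 fold change is therefore also given without circEZH2_005 sample 1, and emphasis on that sample was chosen after the values were seen.

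**Figure D1:**
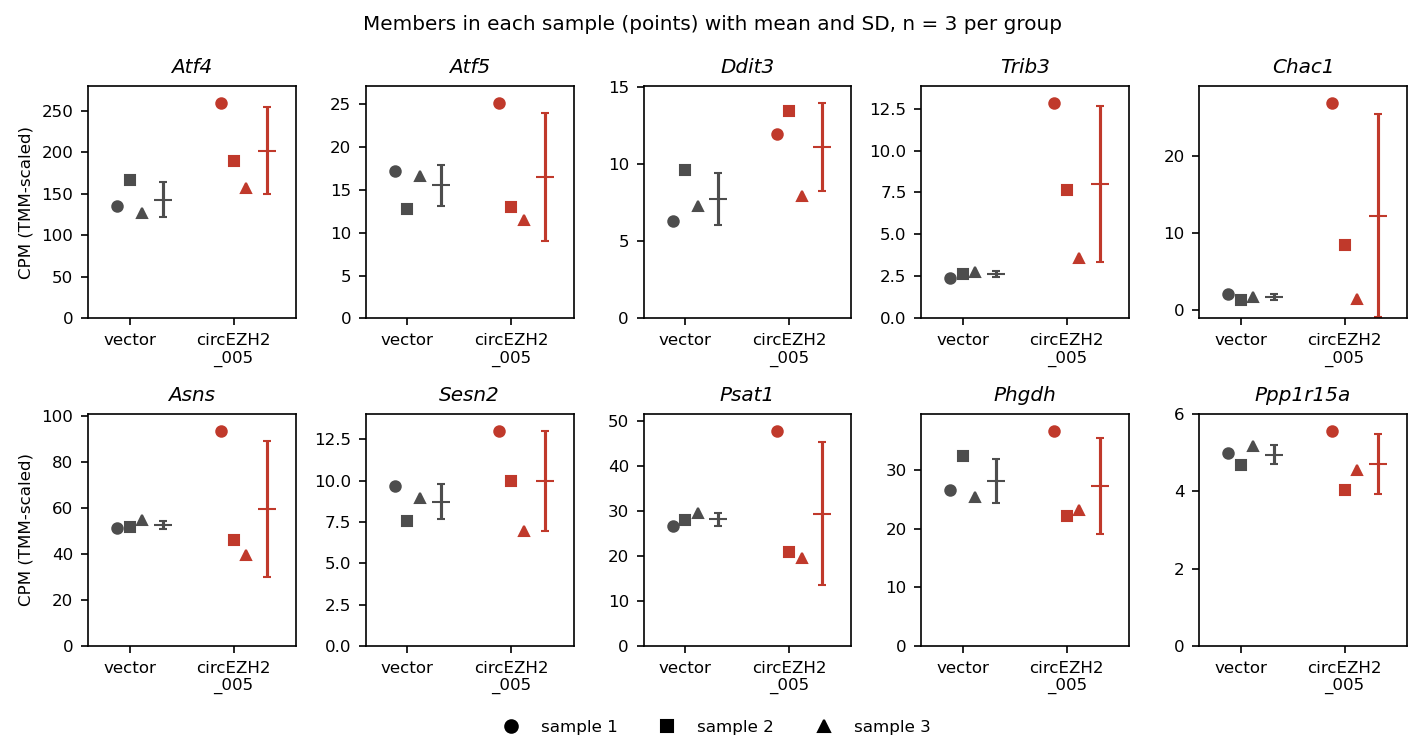
CPM (TMM-scaled, linear axes that include 0) of each member in the 3 vector (grey) and 3 circEZH2_005 (red) samples, with the group mean and SD to the right of the points. CircEZH2_005 sample 1 (circle) is at the top in every panel except that of Ddit3, and the SD of the circEZH2_005 group exceeds that of the vector group in all 10 panels.

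Atf4 (ENSMUSG00000042406, chromosome 15, 80255184 to 80257541, plus strand, GRCm38) encodes the transcription factor at the centre of the response. It stood at 135, 167 and 127 CPM in vector samples 1 to 3 and at 259, 189.6 and 158 CPM in circEZH2_005 samples 1 to 3. The groups overlapped, since circEZH2_005 sample 3 lay below vector sample 2. The log2 fold change was 0.50 (standard error, SE, 0.19, 95% interval 0.06 to 0.94, edgeR adjusted p = 0.165), and 0.28 without circEZH2_005 sample 1 (95% interval -0.07 to 0.62). By length-scaled level Atf4 was the most abundant member, at 56.2 ± 8.81 FPKM with vector and 75.3 ± 24.0 FPKM with circEZH2_005 (SD, n = 3 each).

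Atf5 (ENSMUSG00000038539, chromosome 7, 44812256 to 44816658, minus strand) encodes a related factor whose translation is also favoured when eIF2 is phosphorylated, and which is known for the mitochondrial stress response. Its values were 17.2, 12.8 and 16.7 CPM with vector and 25.1, 13.0 and 11.5 CPM with circEZH2_005. CircEZH2_005 sample 1 was the highest and sample 3 the lowest of the 6, while sample 2 lay inside the vector range. The log2 fold change of 0.09 (SE 0.29, edgeR adjusted p = 0.889) turned to -0.34 without sample 1 (edgeR adjusted p = 0.278). Exons of Nup62 and Il4i1 on the other strand share 82 bases each with it, and no source says whether reads were assigned by strand.

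Ddit3 (ENSMUSG00000025408, chromosome 10, 127290774 to 127296288, plus strand), which encodes CHOP, a factor linked to cell death under lasting stress, was the only member with its highest value in another sample. Vector samples had 6.30, 9.58 and 7.24 CPM, and circEZH2_005 samples had 11.9, 13.4 and 7.94 CPM. Both circEZH2_005 samples 1 and 2 lay above all vector samples, while sample 3 fell within their range. Its log2 fold change was 0.53 (SE 0.24, edgeR adjusted p = 0.234) and hardly moved without sample 1, at 0.47 (edgeR adjusted p = 0.366). Exons of Mars overlap it over 68 bases on the other strand, and a second record named Ddit3 overlaps it over 105 bases on its own strand.

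Trib3 (ENSMUSG00000032715, chromosome 2, 152337422 to 152344032, minus strand), a pseudokinase induced by ATF4 and CHOP that restrains them in turn, was the member closest to the threshold. The 3 vector samples agreed closely, at 2.43, 2.65 and 2.79 CPM, while the circEZH2_005 samples spread over 12.8, 7.65 and 3.57 CPM. Trib3 was the single member whose groups did not overlap, with every circEZH2_005 sample above every vector sample, a pattern that 30.6% of all genes tested showed in either direction and 16.4% with circEZH2_005 above. For this gene the two-sided exact permutation test gave p = 0.1, the smallest that 3 samples against 3 allow. In edgeR the log2 fold change was 1.61 (SE 0.41, 95% interval 0.65 to 2.58, edgeR adjusted p = 0.0701), and 1.10 without circEZH2_005 sample 1 (edgeR adjusted p = 0.117). Without circEZH2_005 sample 3 it was 1.96 and passed (edgeR adjusted p = 0.0374), as it did under DESeq2 with all samples (1.61, adjusted p = 4.50e-04).

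Chac1 (ENSMUSG00000027313, chromosome 2, 119351229 to 119354381, plus strand) encodes an enzyme that breaks down glutathione and is among the genes most strongly induced by ATF4. It had the largest fold change and the widest spread of the members. Vector samples held 1.99, 1.27 and 1.67 CPM, and circEZH2_005 samples held 27.0, 8.40 and 1.31 CPM, from counts of 2148, 625 and 94. CircEZH2_005 sample 1 was thus 16.4 times the vector mean, sample 2 was 5.11 times it, and sample 3 was 0.798 times it, inside the vector range. The coefficient of variation was 108% in the circEZH2_005 group and 21.9% in the vector group. The log2 fold change of 2.90 (SE 0.90, 95% interval 0.80 to 4.99, edgeR adjusted p = 0.106) became 1.56 without sample 1 (95% interval -0.04 to 3.17, edgeR adjusted p = 0.223). It passed without circEZH2_005 sample 3 (3.43, edgeR adjusted p = 0.0438) and with all samples under DESeq2 (2.90, adjusted p = 0.0435).

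Asns, Psat1 and Phgdh encode enzymes that make amino acids: asparagine synthetase, and the phosphoserine aminotransferase and phosphoglycerate dehydrogenase of the serine pathway. Asns (ENSMUSG00000029752, chromosome 6, 7675169 to 7693254, minus strand) was even across vector samples, at 51.5, 51.6 and 54.7 CPM. In circEZH2_005 samples it was at 93.4, 46.1 and 39.4 CPM, so sample 1 lay above and the other samples below all vector samples. The log2 fold change was 0.18 (SE 0.29, edgeR adjusted p = 0.762), and -0.30 without sample 1 (95% interval -0.53 to -0.07, edgeR adjusted p = 0.130).

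Psat1 (ENSMUSG00000024640, chromosome 19, 15904678 to 15947337, minus strand) followed the same order. Its values were 26.7, 28.0 and 29.6 CPM with vector and 47.7, 21.0 and 19.5 CPM with circEZH2_005. Again sample 1 stood above every vector sample, and samples 2 and 3 stood below every vector sample. With all samples the log2 fold change was 0.06 (SE 0.32, edgeR adjusted p = 0.929). It turned to -0.48 without sample 1 (95% interval -0.72 to -0.24, edgeR adjusted p = 0.0563). When vector sample 2 was left out as well, a fit chosen after the data were seen, it was -0.49 and passed (edgeR adjusted p = 0.0395). That fit called 1449 genes higher and 474 lower among 18503 tested. Both fits leave out the sample in which Psat1 was highest.

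Phgdh (ENSMUSG00000053398, chromosome 3, 98313170 to 98339990, minus strand), the first enzyme of the serine pathway, had 26.6, 32.4 and 25.4 CPM with vector and 36.7, 22.1 and 23.1 CPM with circEZH2_005. Here too samples 2 and 3 were below all vector samples and sample 1 above them. Between groups the log2 fold change was -0.04 (SE 0.20, edgeR adjusted p = 0.929), and -0.31 without sample 1 (edgeR adjusted p = 0.211).

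Sesn2 and Ppp1r15a act to limit stress. Sesn2 (ENSMUSG00000028893, chromosome 4, 132492032 to 132510501, minus strand) encodes sestrin 2, which senses leucine and restrains mTORC1. Its levels were 9.68, 7.58 and 8.94 CPM with vector and 13.0, 9.998 and 6.96 CPM with circEZH2_005, where sample 3 was the lowest and sample 1 the highest of the 6. Its log2 fold change was 0.19 (SE 0.23, edgeR adjusted p = 0.670), and -0.04 without sample 1 (edgeR adjusted p = 0.932). Ppp1r15a (ENSMUSG00000040435, chromosome 7, 45522916 to 45526268, minus strand) encodes GADD34, which brings a phosphatase to eIF2 and so ends the response. It was the steadiest member, with 5.00, 4.68 and 5.16 CPM in vector samples and 5.56, 4.03 and 4.55 CPM in circEZH2_005 samples. The log2 fold change was -0.07 (95% interval -0.48 to 0.34, edgeR adjusted p = 0.858). Exons of Tulp2 share 12 bases with it on the other strand.

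**Figure D2:**
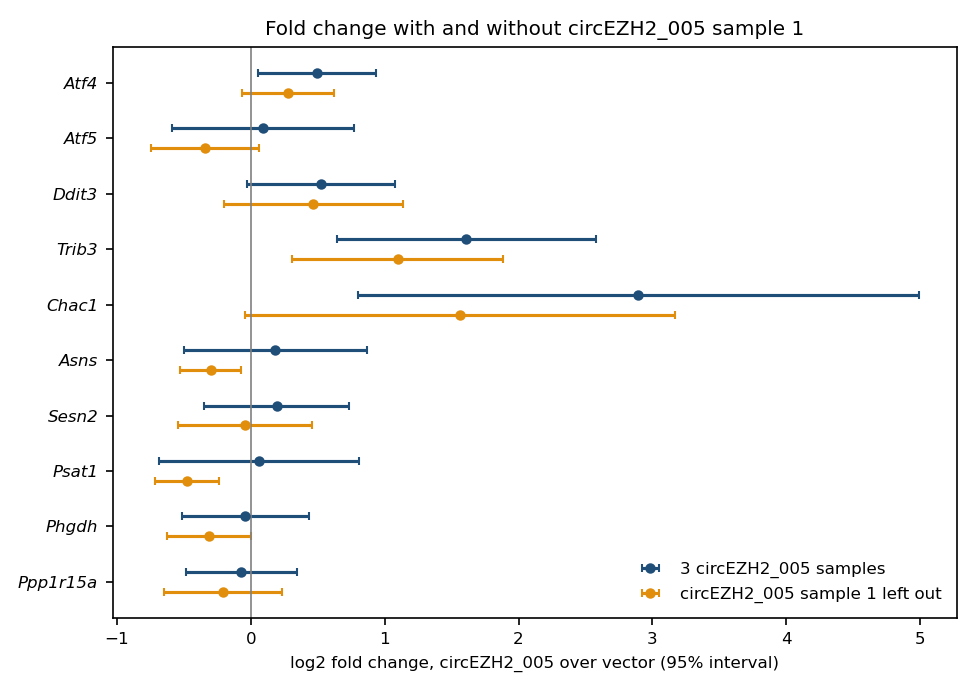
Log2 fold change of circEZH2_005 over vector for each member, with its 95% interval from edgeR, using all samples (blue) or leaving out circEZH2_005 sample 1 (orange). All 10 point estimates are lower without that sample, which lay above the mean of its groupmates in all 10 members. Those of Atf5, Asns, Sesn2 and Psat1 change sign, and Trib3 and Chac1 remain the largest.

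How far the samples of a group stood apart was measured for each library as its log2 CPM minus the mean of the 2 other libraries of its group. Over the members the median of this difference was 0.87 in circEZH2_005 sample 1, where all 10 members were above their groupmates, as were 53.2% of all genes tested. It was -0.20 in sample 2 and -0.68 in sample 3, where 0 of 10 were above. These 3 values depend on one another, because each is taken against the other libraries of the group. In vector samples 1 to 3 the medians were -0.08, -0.02 and 0.08, and over all genes tested the median lay within 0.03 of 0 in every library, with an SD between 0.62 and 0.77. Chac1 had the largest difference in circEZH2_005 sample 1, at 3.01, which 0.223% of all genes exceeded. Next were Trib3 with 1.29, Psat1 with 1.24, Asns with 1.13 and Atf5 with 1.04, which 3.87% to 5.73% of all genes exceeded. For Phgdh, Sesn2 and Atf4 that share was 9.7% to 12.1%. The smallest differences were those of Ppp1r15a, at 0.37 (exceeded by 19.2% of all genes), and Ddit3, at 0.21 (exceeded by 30%). The sum of the 7 fibroblast and muscle markers was also highest in circEZH2_005 sample 1 (10.9 CPM, against 2.68 to 8.04 CPM in the others). The same held for the sums of the 4 proliferation markers (1431 CPM, against 1100 to 1315 CPM) and the 3 endothelial markers (5.50 CPM, against 0.635 to 3.59 CPM). Most of the endothelial sum was Pecam1, with 5.22 CPM in that sample. Of the 8 leukocyte markers, 6 had their highest value there. The summed 6 enterocyte markers were lowest within the group in circEZH2_005 sample 1 (10537 CPM, against 19072 and 15051 CPM). That value lay inside the vector range of 10404 to 12320 CPM, and the other circEZH2_005 samples lay above it. The part of these cell types in the members' values was not tested.

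**Figure D3:**
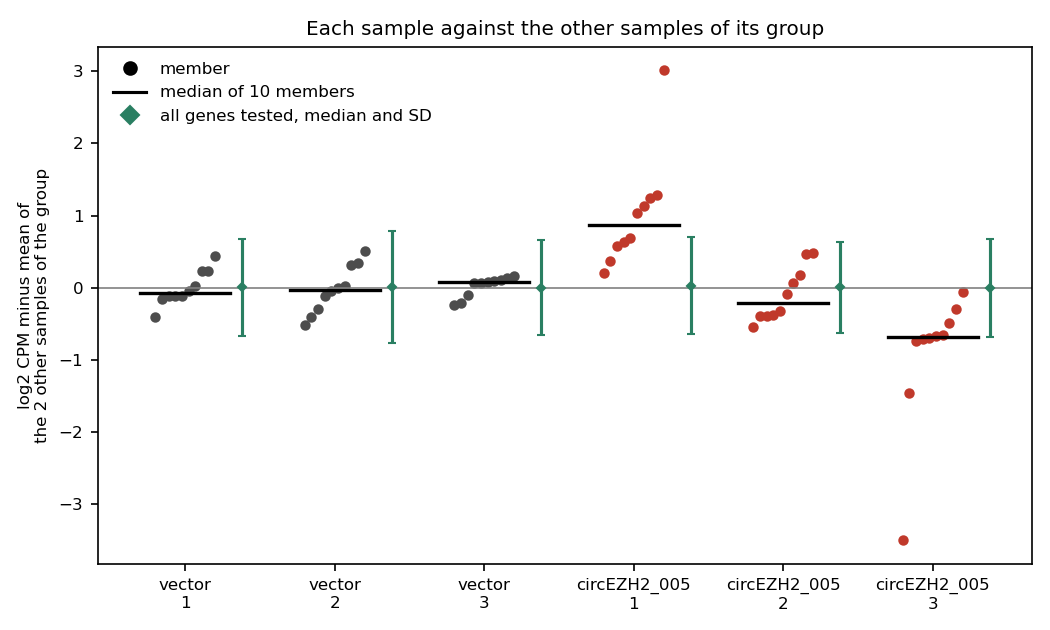
Log2 CPM of each member minus the mean of the 2 other samples of its group, for each of the 6 samples, with the median of the 10 members (black bar) and the median and SD over all genes tested (green). The members centre on 0 in the vector samples, and lie above 0 in circEZH2_005 sample 1 (median 0.87) and below 0 in sample 3 (median -0.68).

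The order of the members by FPKM, a level scaled for length, was Atf4, Asns, Phgdh, Atf5, Psat1, Ddit3, Sesn2, Ppp1r15a, Trib3 and Chac1 in the vector group, from 56.2 to 0.923 FPKM. Neighbours in that order had separate ranges over the 3 samples except for Atf5 beside Psat1 and Trib3 beside Chac1. In the circEZH2_005 group Chac1 had moved from rank 10 to rank 5, at 6.78 ± 7.66 FPKM (SD, n = 3), with 15.4, 4.27 and 0.676 FPKM in samples 1 to 3. Apart from Atf4 and Asns, every neighbouring pair in that group had overlapping ranges. Some members further apart had separate ranges, such as Asns above Atf5 and Phgdh above Ddit3. Overlap of ranges does not compare the genes within a sample. Some overlapping neighbours kept their order in each circEZH2_005 sample, such as Asns above Phgdh, while others did not, such as Atf5 and Chac1.

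Around the members, 141 tested genes of 8 lists cover the rest of the pathway and other stress responses. Of these, 4 passed an adjusted p-value of 0.05 (2.84%, against 3.67% of all genes tested by edgeR): Atf3, Trib2 and Sqstm1 rose and Pdia6 fell. In none of these 4 was circEZH2_005 sample 1 more than 1.39 times the mean of circEZH2_005 samples 2 and 3.

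Upstream, none of the 14 genes for eIF2 kinases, eIF2, its exchange factor eIF2B and their regulators was called by edgeR (3 at an unadjusted p under 0.05) or limma, while DESeq2 called Ppp1r15b, the standing eIF2 phosphatase subunit, as higher. Their median log2 fold change was -0.09. The kinases were Eif2ak1 (HRI, which senses heme shortage and mitochondrial stress) with 0.16, Eif2ak2 (PKR, which senses double-stranded RNA) with 0.47, Eif2ak3 (PERK, of the ER) with 0.23 and Eif2ak4 (GCN2, of amino acid shortage) with -0.01. Eif2ak2 had the largest value of the list but overlapped between groups, because vector sample 2 had 151 CPM beside 87.1 and 79.5 CPM in the other vector samples. Without vector sample 2 edgeR called Eif2ak2 as higher. Eif2b3, a subunit of eIF2B, had the smallest, -0.32 (edgeR adjusted p = 0.168). The data hold mRNA, and the phosphorylation of eIF2 was not measured.

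Among 16 partners and regulators of ATF4, edgeR called 2 as higher. DESeq2 called Atf3, Egln3, Jdp2, Maff and Trib2 as higher and Cebpa as lower, and limma called Atf3 and Jdp2 as higher. Atf3, a bZIP factor induced by ATF4 and by many other signals, went from 5.50, 15.0 and 6.07 CPM to 39.8, 61.0 and 30.8 CPM (log2 fold change 2.31, SE 0.43, edgeR adjusted p = 0.0372). The groups did not overlap, and circEZH2_005 sample 2 was the highest. Trib2, a pseudokinase related to Trib3, went from 0.401, 1.43 and 0.498 CPM to 4.70, 3.76 and 3.00 CPM (2.30, edgeR adjusted p = 0.0497). Jdp2, a bZIP repressor, had the largest value, 2.56, without passing (edgeR adjusted p = 0.0573), and Cebpa the smallest, -0.41 (edgeR adjusted p = 0.0925). The summed leukocyte markers were likewise higher in every circEZH2_005 sample than in every vector sample. So were the summed 6 epithelial markers, with 8838, 11863 and 9743 CPM in circEZH2_005 samples 1 to 3 and 6815 to 7143 CPM with vector. The sum of the 3 endothelial markers also separated, at 2.65 to 5.50 CPM against 0.635 to 1.53 CPM with vector. Of the 3, only Pecam1 was tested and separated (5.22, 3.44 and 2.55 CPM in circEZH2_005 samples 1 to 3). Cdh5 and Kdr reached at most 0.241 and 0.243 CPM and overlapped between groups. Most of the leukocyte sum was Cd74, with 1316, 1895 and 1748 CPM in circEZH2_005 samples 1 to 3. Without Cd74 the other 7 leukocyte markers summed to 384, 305 and 235 CPM, beside 70.1, 177 and 87.1 CPM in vector samples. Thus Atf3, Jdp2 and Cd74 were highest in sample 2, while Trib2 and 6 of the 7 leukocyte markers other than Cd74 were highest in sample 1. The part of these cell types in the values of Atf3, Trib2 and Jdp2 was not tested. Without vector sample 1, without vector sample 3, and without circEZH2_005 sample 2 or 3, edgeR called none of the pathway genes, with 25 to 33 of them at an unadjusted p under 0.05. Without circEZH2_005 sample 1 Atf3 and Trib2 did not pass, while Sqstm1 and Pdia6 did, and without vector sample 2 there were 11, namely 8 higher and 3 lower.

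No gene of the 3 lists of amino acid metabolism, transport and tRNA charging was called by edgeR or limma. DESeq2 called Got1 higher and Aldh1l2 lower among the enzymes, Aars, Kars and Wars higher among the synthetases, and no transporter. At an unadjusted p under 0.05 in edgeR there were 3 enzymes, 1 transporter and 5 synthetase genes. In 19 enzymes of serine, glycine and one-carbon metabolism the median log2 fold change was -0.07. Mthfd2, a mitochondrial folate enzyme, was highest at 0.69 (edgeR adjusted p = 0.276), with 65.2, 28.3 and 26.1 CPM in circEZH2_005 samples beside 20.8, 29.5 and 23.9 CPM in vector samples. Aldh1l2, another mitochondrial folate enzyme, was lowest at -1.21 (edgeR adjusted p = 0.105), though edgeR called it without circEZH2_005 sample 1, with each circEZH2_005 sample below each vector sample. In 11 amino acid transporters the median was 0.14, and in 23 cytosolic aminoacyl-tRNA synthetases and their partners it was 0.01.

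CircEZH2_005 sample 1 also stood high in the transporters and synthetases. It was the highest of the 6 in 8 of 11 transporters and 17 of 23 synthetase genes, against 19.5% of all genes tested, and its median difference from its groupmates was 0.61 and 0.32 on the log2 scale. Slc7a11, which imports cystine for glutathione synthesis, had 5.37, 0.820 and 0.614 CPM in circEZH2_005 samples and 0.552, 1.47 and 2.36 CPM in vector samples. Slc7a5, the leucine transporter LAT1, had 54.5, 18.1 and 13.2 CPM in circEZH2_005 samples and 16.0, 21.7 and 17.6 CPM in vector samples. In both genes sample 1 was far above the other 5 samples, which overlapped, and their log2 fold changes of 0.63 each did not pass (edgeR adjusted p = 0.714 and 0.482). Slc7a6 was the lowest transporter, at -0.23. Among the synthetase genes Wars, for tryptophan, departed from this: it had 174, 207 and 167 CPM with circEZH2_005 and 114, 143 and 114 CPM with vector, the largest value of its list (0.56, edgeR adjusted p = 0.0564), and sample 2 was the highest. Kars, for lysine, and Wars were called by edgeR without vector sample 2. Farsb, for phenylalanine, was the lowest, at -0.34 (edgeR adjusted p = 0.169).

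**Figure D4:**
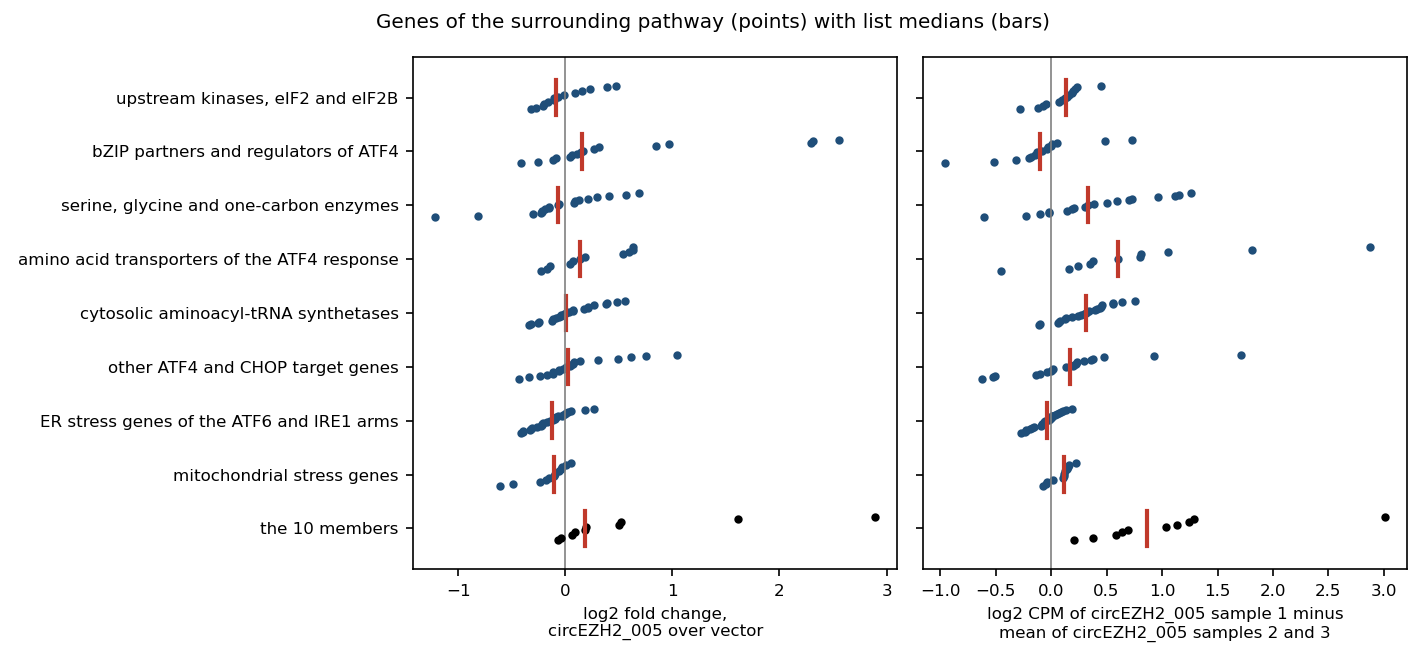
For the genes tested in 8 pathway lists and for the 10 members, the left panel plots the log2 fold change of circEZH2_005 over vector and the right panel the log2 CPM of circEZH2_005 sample 1 minus the mean of circEZH2_005 samples 2 and 3, with list medians as bars. On the right the medians of the members, transporters and synthetases lie at 0.87, 0.61 and 0.32, and that of the ER stress genes at -0.04.

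Of 20 other ATF4 and CHOP target genes, Sqstm1, the autophagy receptor p62 that NRF2 also induces, rose from 81.4, 79.7 and 82.4 CPM to 115, 119 and 109 CPM (log2 fold change 0.49, SE 0.07, edgeR adjusted p = 0.0232). Its 3 circEZH2_005 samples differed little from one another. DESeq2 also called Cdkn1a and Vegfa as higher, as did edgeR without circEZH2_005 sample 1. With all samples their log2 fold changes were 0.76 and 0.61 (edgeR adjusted p = 0.0862 and 0.0685). Gdf15, a stress-induced secreted factor, had the largest value of the list, 1.04, from a low level of 1.13, 0.255 and 0.419 CPM in circEZH2_005 samples (edgeR adjusted p = 0.406), and Klhl24 the smallest, -0.43 (edgeR adjusted p = 0.155). The list's median was 0.03.

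The ATF6 and IRE1 arms are the other branches of ER stress and raise chaperones and protein disposal. Of 26 genes, Pdia6, a protein disulfide isomerase, fell from 413, 418 and 427 CPM to 335, 307 and 304 CPM (log2 fold change -0.41, SE 0.08, edgeR adjusted p = 0.0412). DESeq2 called 4 further genes of this list lower, namely Canx, Hsp90b1, Pdia4 and Sec61b, and limma also called Pdia4 and Sec61b lower. No gene of it rose by edgeR, DESeq2 or limma, 6 had a positive value, and the median was -0.13. Hspa5, which encodes the ER chaperone BiP, was at 1087, 1279 and 1170 CPM with vector and at 971, 1030 and 1022 CPM with circEZH2_005 (-0.23, edgeR adjusted p = 0.196). The largest value was that of Edem1, 0.27 (edgeR adjusted p = 0.176). CircEZH2_005 sample 1 was the highest of the 6 in 1 of these 26 genes. Of 12 mitochondrial stress genes none was called by edgeR (3 at an unadjusted p under 0.05) or limma, and DESeq2 called the chaperonin genes Hspd1 and Hspe1 lower. In edgeR 2 had a positive value, with Afg3l2 highest at 0.05 and Hspe1 lowest at -0.61 (edgeR adjusted p = 0.0679).

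Likeness to Atf4 and Ddit3 was taken as the root mean square difference of centred log2 CPM over the 6 samples, among 13339 genes averaging 1 CPM or more. Nearest to Atf4 were Wdr91 (0.0757), Accs (0.0773), Thumpd2 (0.0815), Stk40 (0.0839) and Gimap1 (0.0861), and nearest to Ddit3 were Pdia2 (0.0826), Gm4430 (0.104), Crlf3 (0.104), Trim35 (0.106) and Pik3r5 (0.108). No other member is among these genes, since the members were left out of the search, and with 6 samples such likeness is a description only.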

How the data were processed

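RNA sequencing of 6 samples was used, with groups and replicate numbers from the labels. The table's control columns are named NC and were taken as vector, since the labels hold no other controls. The authors deposited, per gene and sample, a raw count and an FPKM value. The submitters' processing notes list cutadapt 1.9, HISAT2 2.0.4, StringTie 1.3.4d, DESeq2 and mm10; which program made the counts is not given in the sources used here. Of 28752 identifiers, 28527 had the same start in GENCODE M21 (GRCm38), and all 10 members had the same coordinates.

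Genes kept by filterByExpr were scaled with TMM and tested by quasi-likelihood in edgeR 4.0.16 (R 4.3.3), without a covariate. Each standard error was derived from the F statistic, and log2 CPM used a prior count of 2. Alternatives were median-of-ratios and upper-quartile scaling, other filters, DESeq2 1.42.0, limma 3.58.1 on log2(FPKM + 1) or log2(FPKM + 0.1) for genes averaging 0.5 FPKM or more, a replicate block and each sample left out. The scripts were tested on simulated data, where unchanged genes made up a larger share of the calls of DESeq2 than of those of edgeR or limma. Those counts were drawn with dispersions estimated by edgeR, and fewer genes were changed than DESeq2 called in the real data. That order may therefore not carry over to the real data.

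The members and lists were chosen with earlier results of these data known. From each list the text names up to 4 called genes, by p, and those at either end of the log2 fold changes, and the 5 genes most like Atf4 and Ddit3. Eif2ak1, Eif2ak3, Eif2ak4, Slc7a5, Hspa5, Cd74 and the pathway genes called only by DESeq2 or in a fit with a sample left out were named after their values were seen. The depth was at least 71506487 counts per sample, and the lowest count of a member was 94, so the precision rests mainly on 3 samples per group.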

Additional observations from a re-analysis of the deposited data

How the results depend on the processing

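The adjusted p-value of each member was on the same side of 0.05 in every alternative except for Trib3, Chac1 and Psat1, as given above. Over 15 alternatives the log2 fold change ranged from 0.28 to 0.65 for Atf4, 0.35 to 0.72 for Ddit3, 0.91 to 1.96 for Trib3 and 1.39 to 3.43 for Chac1, all positive. The sign of the others depended on the setting. Without circEZH2_005 sample 1 it turned for Atf5 (-0.34), Asns (-0.30), Sesn2 (-0.043) and Psat1 (-0.48), and with vector sample 2 also left out, chosen after seeing the data, the same genes had -0.48, -0.33, -0.15 and -0.49. Limma on log2(FPKM + 1) gave Atf5 -0.055, Asns -0.0066 and Psat1 -0.11, and on log2(FPKM + 0.1) -0.072, -0.013 and -0.15. With 1 sample left out the values ran from -0.34 to 0.29 for Atf5, -0.30 to 0.41 for Asns, -0.043 to 0.40 for Sesn2, -0.48 to 0.29 for Psat1, -0.31 to 0.089 for Phgdh and -0.21 to 0.030 for Ppp1r15a, with the lowest without circEZH2_005 sample 1. CircEZH2_005 sample 1 lay above the mean of its groupmates in all 10 members, so leaving it out lowers each estimate. Why that sample was higher was not tested.

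Of all genes, 493 were higher and 181 lower. These counts were 132 and 37 with no filter on low counts, 1588 and 701 with DESeq2, and 323 and 319 with limma on log2(FPKM + 0.1), while limma on log2(FPKM + 1) gave 364 lower. With 1 sample left out they lay between 26 and 1098 and between 2 and 334, and with vector sample 2 and circEZH2_005 sample 1 left out together they were 1449 and 474. Members called higher numbered 2 under DESeq2 and between 0 and 2 with 1 sample left out, and 1 member was called lower with both samples left out. Among the 141 pathway genes, 3 were higher and 1 lower. With DESeq2 these were 13 and 9, with no filter 1 and 0, with both samples left out 13 and 7, and with 1 sample left out 0 to 8 and 0 to 3. The lower ones numbered 2 with upper-quartile scaling and 3 with limma at either pseudocount. Trib2 was not called under median-of-ratios or upper-quartile scaling or the stricter filter. Limma did not test it, since it averaged less than 0.5 FPKM. With no filter Sqstm1 was the one pathway gene called.

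With the replicate number as a block there were 241 higher and 36 lower genes and 0 lower pathway genes, and no member was called. Atf3 and Jdp2 were then the pathway genes called, and Sqstm1, Trib2 and Pdia6 were not. Psat1 then had -0.066. Deviations of same-numbered samples from their group means correlated at -0.14, -0.02 and 0.04. With 3 samples per group these values cannot tell whether same-numbered samples share an animal or a batch.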
